A study of Mus musculus with 8 samples.

Results

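Transcripts of 10 genes of MHC class II antigen presentation were followed in mouse B cell lymphoma cells exposed to the BET bromodomain inhibitor JQ1. The 10 genes were H2-Aa, H2-Ab1, H2-Eb1, H2-DMa, H2-Ob, Cd74, Ciita, Ctss, Rfx5 and Ifi30. They were listed by name, with no cut on a measured value, although earlier results of these data were known, and all 10 were matched by Ensembl identifier among the 43629 genes counted. The cells were lymphoma lines 1.1 and 1.2 of the C57BL/6 strain from Eμ-Myc mice, in which an immunoglobulin heavy chain enhancer drives a Myc transgene in B lineage cells. All 4 groups carried that transgene: line 1.1 with 250 nM JQ1 for 2 h, line 1.1 with the solvent DMSO for 2 h, and line 1.2 with each of the same 2 treatments. There were 2 libraries per group, 8 in all, with 10347453 to 13049877 gene reads each. Whether the 2 libraries of a group came from separate cultures is not given in the labels, so the p-values cover only the spread of these libraries, and that spread may be technical.

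MHC class II molecules are heterodimers of an alpha and a beta chain that display peptides from the endosomal route to CD4 T cells. New heterodimers bind the invariant chain Cd74, which is trimmed by cathepsin S (Ctss), and the last fragment is exchanged for peptide by H2-DM under the control of H2-DO. Transcription of the chains, of Cd74 and of the DM and DO genes depends on an enhanceosome of the RFX complex, NF-Y and CREB family proteins, which bind the X and Y boxes of the promoters and recruit the coactivator Ciita. B cells normally express this system constitutively. JQ1 displaces the BET proteins, readers of acetylated histones, from chromatin. C57BL/6 mice form the I-A heterodimer of H2-Aa and H2-Ab1 and lack a functional alpha chain for I-E, so H2-Eb1 has no partner in this strain.

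Promoter letters are shown first for the genes whose window held both cores of the class II arrangement, and for Rfx5, whose product binds it. RefSeq promoter windows of the GRCm38.p6 build, 250 bases before to 50 after the gene start, were matched by symbol for 7 of the 10 genes, namely Rfx5, Ctss, Ifi30, H2-DMa, H2-Ob, H2-Aa and H2-Eb1. Both strands were searched for CCAAT, the core of the NF-Y box, and for AGCAAC, the core of the RFX box. CCAAT was present for 5 of the 7 genes and in 37.4% of 32851 windows, and AGCAAC for 3 of the 7 genes and in 14.8% of windows. A gene was counted if any of its windows matched, so counts of genes and shares of windows are not alike. H2-DMa had a window at chr17:34122582-34122881 and another at chr17:34125268-34125567, and only the latter held CCAAT on either strand. The shorter core GCAAC, which AGCAAC contains, was added after reading the windows, and so was a gap of 20 to 35 bases. The shares of the resulting pair are therefore no test. GCAAC was sought with ATTGG, the reverse complement of CCAAT, following across that gap on the same strand. This ordered pair was present for H2-Ob, H2-Aa and H2-Eb1 and in 0.794% of all windows, and with AGCAAC in place of GCAAC for H2-Ob and H2-Eb1 and in 0.237%. The 3 stretches are at chr17:34238793-34238872 on the plus strand for H2-Ob, chr17:34287850-34287929 on the minus strand for H2-Aa and chr17:34305751-34305830 on the plus strand for H2-Eb1. Each is 80 bases, written 5′ to 3′, and capitals mark the GCAAC core and the ATTGG core.
H2-Ob: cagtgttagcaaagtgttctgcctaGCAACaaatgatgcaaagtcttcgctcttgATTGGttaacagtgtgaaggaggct
H2-Aa: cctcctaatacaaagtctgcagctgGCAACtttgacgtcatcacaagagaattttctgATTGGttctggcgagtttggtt
H2-Eb1: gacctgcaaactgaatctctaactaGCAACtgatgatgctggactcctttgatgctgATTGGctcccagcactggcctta
The gap between the cores was 25 bases for H2-Ob, 28 for H2-Aa and 27 for H2-Eb1. The window of Rfx5, itself a subunit of the RFX complex, held 2 CCAAT boxes whose first bases lie 59 apart. Its stretch at chr3:94953985-94954068 on the plus strand has capitals at the CCAAT boxes and at the GCAAC core between them.
Rfx5: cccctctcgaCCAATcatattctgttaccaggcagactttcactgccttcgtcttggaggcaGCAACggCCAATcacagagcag
The windows of Ctss and Ifi30 held none of these letters. A match is a description of the letters in this window and does not show that a protein binds there.

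The 10 genes spanned a wide range of levels. In CPM (edgeR's read count over library size after TMM scaling) per kilobase of exon, Ifi30 averaged 180 over the 8 libraries and Ctss 61.0, and neither range overlapped the next gene's. Cd74 followed at 14.8, H2-Ab1 at 6.50, Rfx5 at 4.27 and H2-Ob at 4.08. Cd74 was above H2-Ab1 in each of the 8 libraries although their ranges met, from 8.91 to 21.2 for Cd74 and from 5.01 to 9.46 for H2-Ab1. Rfx5 and H2-Ob could not be ordered, since Rfx5 was the higher in 4 of the 8 libraries. The last 4 were H2-Eb1 at 0.297, H2-Aa at 0.172, Ciita at 0.0506 and H2-DMa at 0.0317 CPM per kilobase, and each of these ranges overlapped the next.

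Transcripts of the 2 partners of I-A were far from equal. H2-Ab1, the beta chain, had 141 to 269 reads in a library, and H2-Aa, the alpha chain, had 2 to 16. Per kilobase, the mean of H2-Ab1 divided by that of H2-Aa was 75.7 in line 1.1 with JQ1 and 112 in line 1.1 with DMSO. It was 18.3 in line 1.2 with JQ1 and 34.9 in line 1.2 with DMSO. The line 1.1 ratios rest on 6 H2-Aa reads in all with JQ1 and 5 with DMSO. They are therefore rough, and no shift of the ratio with JQ1 can be read from them. The other component that sets peptide loading, H2-DMa, had 0 to 2 reads in every library, 10 in all. A count of 3 reads, taken here as the floor, is 0.230 to 0.290 CPM of the gene reads of a library, and H2-DMa lay below it throughout. Ciita had 0 to 13 reads, 45 in all. H2-DMa and Ciita did not pass the expression filter of edgeR, so 8 of the 10 genes were tested among 12413.

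B lineage identity was checked on 8 markers, of which 7 were tested and which summed to 2600 to 3339 CPM per library. Much of that sum was Ighm, the mu heavy chain, which averaged 1592 CPM over the 8 libraries. Others were scarce: group means were 0.132 to 0.515 CPM for Vpreb1, and 1.31 and 1.40 CPM for Ms4a1 in line 1.1. Of 13 dendritic and myeloid markers, whose cells also carry class II, 3 were tested, the most abundant averaged 2.19 CPM, and Itgax, Clec9a, Cd209a and Lyz2 had no read in any library. Their sum was 3.80 to 4.19 CPM in line 1.1 with JQ1 and 5.54 to 6.41 CPM in line 1.1 with DMSO. In line 1.2 it was 2.48 to 2.99 CPM with JQ1 and 5.30 to 5.33 CPM with DMSO. None of 5 T cell markers was tested, and Cd3e, Cd3g and Cd4 were at 0. In such bulk libraries, fewer cells that carry a transcript and less of it per cell cannot be told apart. Gm42418, a gene over ribosomal RNA, was highest in line 1.2 with JQ1, at 1296 and 2644 CPM, against 341 to 977 CPM in the other 6 libraries.

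**Figure D1:**
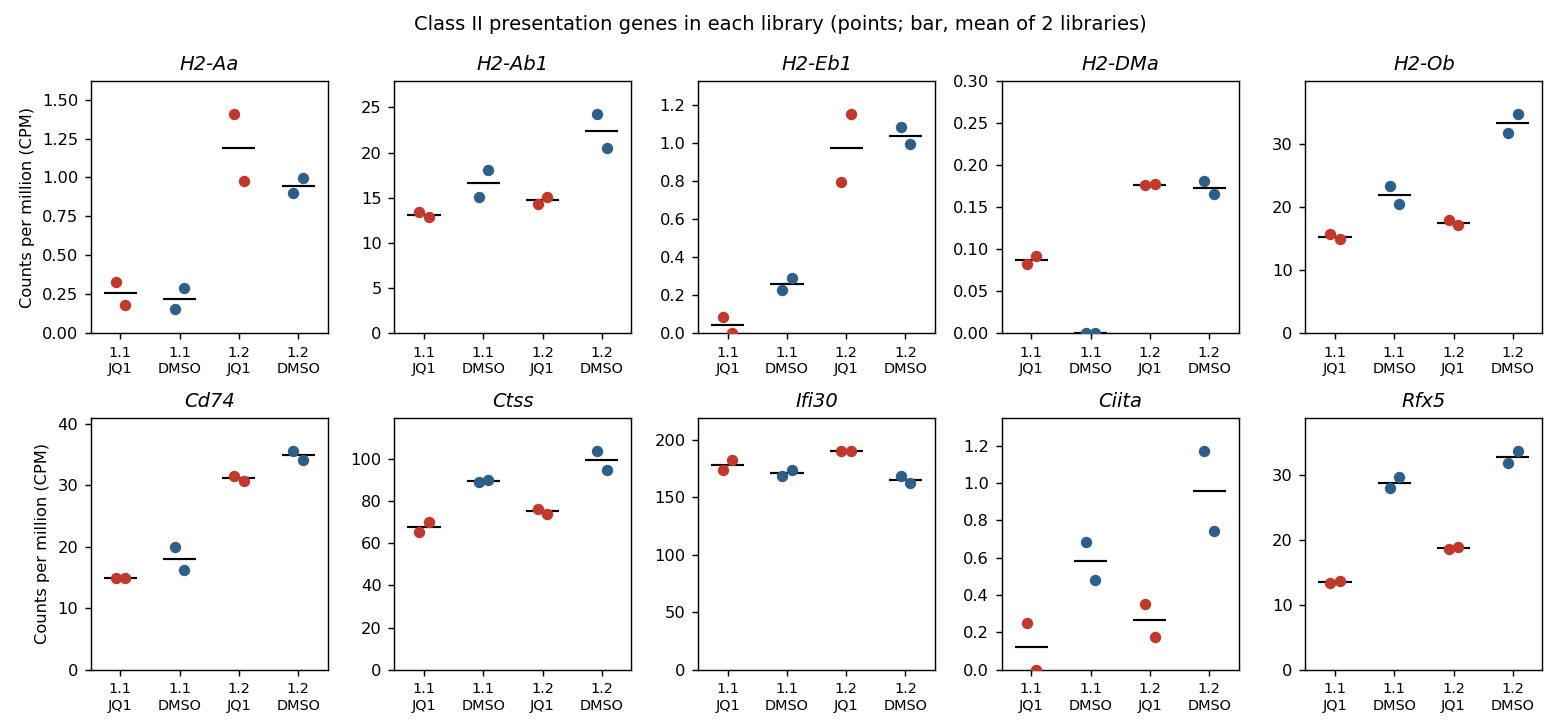
CPM (linear axes from 0) of the 10 class II presentation genes in each library, with JQ1 libraries in red left of DMSO libraries in blue for lines 1.1 and 1.2; points are libraries and bars the mean of 2. H2-Ab1, H2-Ob, Cd74, Ctss, Ciita and Rfx5 have both JQ1 points below both DMSO points in each line. Ifi30 has both JQ1 points above both DMSO points in each line, barely so in line 1.1. The share of all genes that separate in these ways was not counted. H2-Aa, H2-Eb1, H2-DMa and Cd74 are higher in line 1.2.

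The first comparison asked how 2 h of JQ1 moved the class II genes. Averaged over the lines, 5 of the 8 tested genes fell (H2-Ab1, H2-Ob, Cd74, Ctss and Rfx5), 1 rose (Ifi30) and H2-Aa and H2-Eb1 did not pass. JQ1 moved much of the transcriptome: 31.3% of all tested genes were lower and 30.7% were higher at an adjusted p under 0.05 (edgeR's quasi-likelihood test with Benjamini-Hochberg adjustment over all tested genes). The median log2 change was −0.43 over the 8 tested genes, against 0.00 over all tested genes. Averaged over the lines, none of the 5 falls reached 2-fold. Given a null of a 1.5-fold change in place of no change, Rfx5 alone was called among the 10 genes.

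Of the chains, H2-Ab1, the beta chain of I-A, had 13.4 and 12.9 CPM in line 1.1 with JQ1, against 15.1 and 18.1 CPM in line 1.1 with DMSO. In line 1.2 it had 14.3 and 15.1 CPM with JQ1 and 24.3 and 20.5 CPM with DMSO. Both JQ1 libraries lay below both DMSO libraries in each line. The averaged log2 change was −0.46 (SE 0.083, adjusted p = 3.50e-05), a fall of 1.38-fold. In line 1.1 alone the change was −0.33 (SE 0.12, adjusted p = 0.0288). That call was lost with DESeq2 (adjusted p = 0.133) and without JQ1 replicate 1 or 2 or DMSO replicate 2 of line 1.1, the last leaving −0.21.

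H2-Aa, the alpha partner, had 4 and 2 reads in line 1.1 with JQ1 and 2 and 3 reads with DMSO. Line 1.2 gave 16 and 11 reads with JQ1 and 10 and 12 with DMSO. JQ1 and DMSO libraries overlapped in both lines. Summed over the lines, the reads were 33 with JQ1 and 27 with DMSO, a ratio of 1.21 per read sequenced with an exact 95% interval of 0.708 to 2.10 for counting error. A fall of H2-Aa as large as that of H2-Ab1 lies inside that interval, at 0.726 of the DMSO level.

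H2-Eb1, the I-E beta chain, was as scarce. Line 1.1 gave 1 and 0 reads with JQ1 and 3 in each DMSO library, and line 1.2 gave 9 and 13 reads with JQ1 and 12 in each DMSO library. The JQ1 libraries were lower in line 1.1 and spread around the DMSO libraries in line 1.2. The ratio of summed reads, JQ1 over DMSO, was 0.166 in line 1.1 (exact 95% interval 0.00361 to 1.37) and 0.908 in line 1.2 (0.486 to 1.69). The averaged change did not pass with edgeR (adjusted p = 0.0863) and passed with limma-voom (adjusted p = 0.0262).

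The steps after assembly of the chains were next. Cd74, the invariant chain that escorts new class II molecules, lies at position 60803848 to 60812652 of chromosome 18. It had 14.95 CPM in both JQ1 libraries of line 1.1, against 19.9 and 16.3 CPM in its DMSO libraries. In line 1.2 it had 31.6 and 30.8 CPM with JQ1 and 35.7 and 34.2 CPM with DMSO. The groups did not overlap in either line, but the steps were small beside the gap between the lines. Averaged, Cd74 fell by 0.22 on the log2 scale (SE 0.069, adjusted p = 0.00697), with −0.29 in line 1.1 (adjusted p = 0.0320) and −0.16 in line 1.2 (adjusted p = 0.117), the last turning to 0.13 with Gm42418 as a covariate. The averaged call was lost with DESeq2 (adjusted p = 0.062), with that covariate (−0.09) and without DMSO replicate 1 of line 1.1 (−0.14). The line 1.1 call was lost with DESeq2 (adjusted p = 0.148) and at a threshold of 0.01. It was also lost without either JQ1 replicate or DMSO replicate 1 of line 1.1, the last leaving −0.13.

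H2-Ob encodes the beta chain of H2-DO, which restrains H2-DM in B cells. Line 1.1 had 15.7 and 14.9 CPM with JQ1, against 23.3 and 20.4 CPM with DMSO. Line 1.2 had 17.9 and 17.1 CPM with JQ1, against 31.7 and 34.7 CPM with DMSO. All 4 JQ1 libraries lay below all 4 DMSO libraries. The averaged change was −0.72 (SE 0.070, adjusted p = 3.38e-09), a fall of 1.65-fold. H2-DMa, the alpha chain of the editor that H2-DO restrains, had 1 read in each JQ1 library of line 1.1 and none in its DMSO libraries, and 2 in each library of line 1.2, so no change could be read at this depth. It also overlaps Brd2 on the opposite strand, and the strand setting of the counting is not given in the sources used here.

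Ctss, the protease that cuts the invariant chain in B cells and dendritic cells, had 65.4 and 70.1 CPM in line 1.1 with JQ1 and 89.0 and 89.9 CPM with DMSO. In line 1.2 it had 76.1 and 74.0 CPM with JQ1 and 104 and 94.8 CPM with DMSO. Every JQ1 library lay below every DMSO library. The log2 change was the same to 2 decimals in both lines, −0.40 in line 1.1 (SE 0.062) and −0.40 in line 1.2 (SE 0.061), and −0.40 averaged (SE 0.043, adjusted p = 1.86e-08). Ifi30, the lysosomal thiol reductase GILT that unfolds disulfide-bonded antigens, went the other way. It had 174 and 183 CPM in line 1.1 with JQ1 and 168 and 174 CPM with DMSO. In line 1.2 it had 190 and 191 CPM with JQ1 and 168 and 163 CPM with DMSO. The line 1.1 groups touched at the rounded value, while those of line 1.2 were clearly apart. Averaged, Ifi30 rose by 0.13 (SE 0.034, adjusted p = 0.00191), a 1.10-fold rise, and the call was lost with Gm42418 as a covariate (0.10). GENCODE classes this gene as a processed transcript, and 6330537M06Rik overlaps it on the opposite strand.

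Of the 2 regulators, Rfx5, the DNA-binding subunit of the RFX complex, had the largest fall of the tested genes that passed. It had 13.4 and 13.7 CPM in line 1.1 with JQ1, against 27.95 and 29.74 CPM with DMSO. Line 1.2 had 18.7 and 18.9 CPM with JQ1, against 31.9 and 33.8 CPM with DMSO. Every JQ1 library was well below every DMSO library. The averaged change was −0.95 (SE 0.065, adjusted p = 6.03e-12), a fall of 1.93-fold, with −1.09 in line 1.1 (SE 0.096) and −0.81 in line 1.2 (SE 0.088). B230398E01Rik overlaps Rfx5 on the opposite strand.

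Ciita, the class II transactivator, had 3 and 0 reads in line 1.1 with JQ1 and 9 and 5 with DMSO, and 4 and 2 reads in line 1.2 with JQ1 and 13 and 9 with DMSO. Every JQ1 library held fewer reads than every DMSO library. Summed over the lines, 9 reads with JQ1 stood against 36 with DMSO, a ratio of 0.248 per read sequenced with an exact 95% interval of 0.105 to 0.525 for counting error. By line the ratio was 0.213 in line 1.1 (0.0393 to 0.764) and 0.270 in line 1.2 (0.0896 to 0.687). Without the expression filter, edgeR's quasi-likelihood test gave an averaged log2 change of −1.95 (SE 0.51, adjusted p = 0.000587). Ciita spans 10480059 to 10528418 of chromosome 16 and overlaps Dexi on the opposite strand, which rose by 0.83 (SE 0.12) under JQ1.

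Within line 1.1, 5 of the 8 tested genes were lower with JQ1 (26.1% of all tested genes were) and 0 were higher (24.9% of all tested genes). The 5 became 3 with DESeq2 and at a threshold of 0.01. H2-Ab1 and Cd74 also lost their calls with JQ1 replicate 1 or with JQ1 replicate 2 of line 1.1 left out. That left −0.35 or −0.30 for H2-Ab1 and −0.28 each time for Cd74. In line 1.2, 4 of the 8 were lower (25% of all tested genes), namely H2-Ab1 by −0.60, H2-Ob by −0.93, Ctss by −0.40 and Rfx5 by −0.81, and 1 was higher (24.4% of all tested genes), Ifi30 by 0.20. The test of the difference between the lines' JQ1 effects called none of the 8 genes in either direction, where 0.0322% of all tested genes were called lower and 0.0806% higher in line 1.2. At an unadjusted p under 0.05, where 8.06% of all tested genes lay, 3 of the 8 are found: H2-Ob by −0.40 (SE 0.14), Rfx5 by 0.28 (SE 0.13) and Ifi30 by 0.14 (SE 0.069). DESeq2 and limma-voom also called 0. The interval of this difference for H2-Ab1 was −0.62 to 0.07 on the log2 scale, and for Ctss −0.18 to 0.18.

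**Figure D2:**
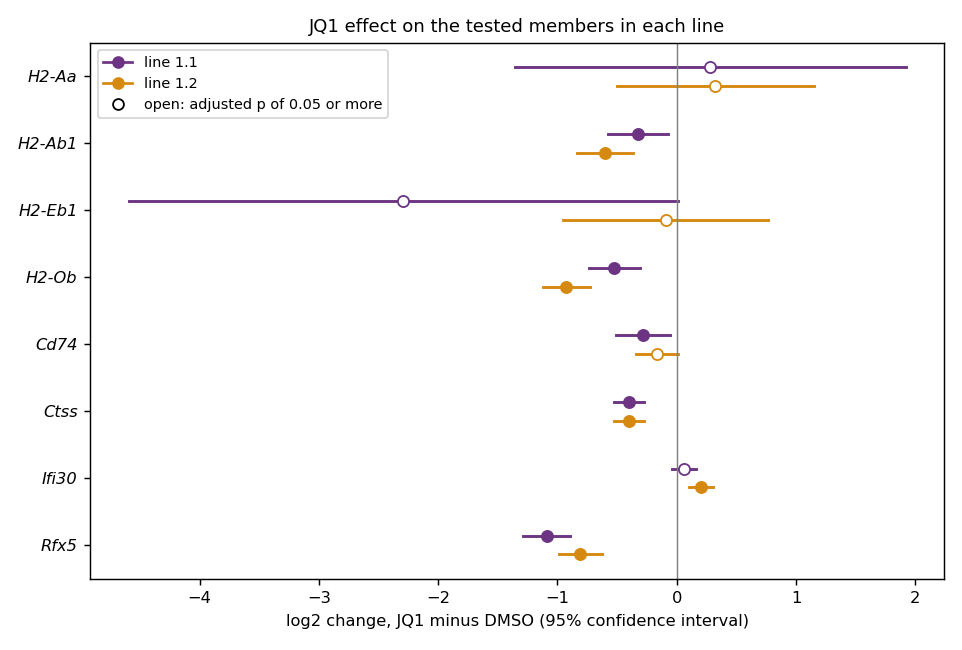
log2 change, JQ1 minus DMSO, of the 8 tested class II genes in line 1.1 (purple) and line 1.2 (orange), with 95% confidence intervals; filled points passed an adjusted p of 0.05. Rfx5, H2-Ob, H2-Ab1 and Ctss are below 0 in both lines, and the wide intervals belong to H2-Aa and H2-Eb1, which had at most 16 reads.

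Of the 10 genes, 5 lie in the class II region of chromosome 17, which runs for 249 kb from H2-Oa to H2-Eb2 (34092340 to 34341412, GRCm38). There H2-Ob spans 34238903 to 34254414 on the plus strand, H2-Ab1 34257689 to 34269419 on the plus strand, H2-Aa 34282744 to 34287823 on the minus strand and H2-Eb1 34305867 to 34316674 on the plus strand. Of 18 genes of the region in the file, 12 were tested. JQ1 lowered 6 of them and raised 1, and 5 did not pass, beside 31.3% lower and 30.7% higher among all tested genes. The 6 were H2-Ob, H2-Ab1, the neighbouring H2-Eb2 and, from the class I pathway, Tap1, Tap2 and Psmb8. The 1 that rose was Brd2, a BET protein itself, by 0.99 (SE 0.033). The changes thus ran in both directions within the region.

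**Figure D3:**
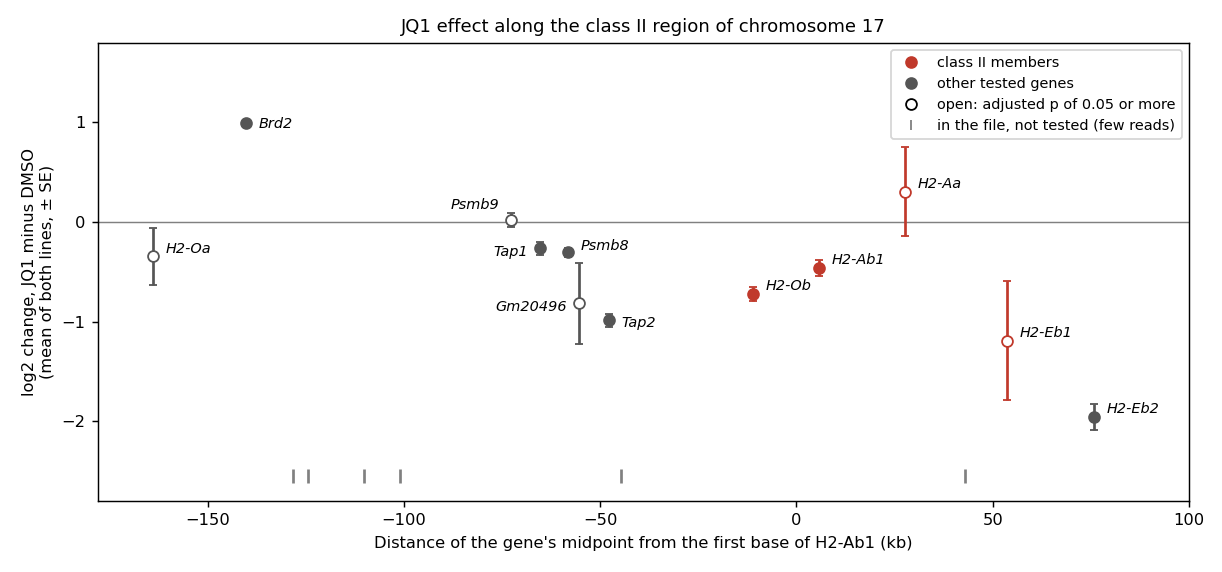
Averaged log2 change, JQ1 minus DMSO (± SE), of the 12 tested genes of the class II region against the distance of the gene's midpoint from the first base of H2-Ab1 in kb; red marks the class II genes described above and grey ticks mark genes with too few reads to test. Brd2 is at 0.99 and H2-Eb2 at −1.96, with H2-Ob and H2-Ab1 between them.

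The other chains and loading genes were a list of 5, of which 4 were in the file and 2 were tested. H2-Eb2, a second beta chain gene beside H2-Eb1, had 29 and 22 reads in line 1.1 with JQ1, against 130 and 101 reads with DMSO, and 41 and 31 reads in line 1.2 with JQ1, against 117 and 135 reads with DMSO. All JQ1 libraries were far below all DMSO libraries. The averaged change was −1.96 (SE 0.13, adjusted p = 4.42e-12), larger than that of any of the 8 tested class II genes above. H2-Oa, the alpha partner of H2-Ob, did not pass at −0.35 (SE 0.28). H2-DMb1 and H2-DMb2, near-identical beta chain genes of H2-DM whose reads may be lost or shared in counting, were not tested.

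Among the partners of Rfx5 and NF-Y, all 6 were tested, with 2 higher, 2 lower and 2 not passing, shares near those of all tested genes (30.7% higher and 31.3% lower). The NF-Y subunits split: Nfya rose by 0.36 (SE 0.037), whereas Nfyb fell by 0.42 (SE 0.048) and Nfyc by 0.27 (SE 0.053). Creb1, which binds the X2 box, rose by 0.34 (SE 0.036). The other RFX subunits were measured at 0.13 for Rfxap and 0.09 for Rfxank, and neither passed.

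Known regulators of Ciita numbered 11, of which 10 were tested, with 8 lower, 1 higher and 1 not passing, beside 31.3% lower and 30.7% higher among all tested genes. Irf4, a partner of PU.1 in B cells, averaged 158 ± 5.33 CPM in line 1.1 with JQ1 and 356 ± 23.0 CPM with DMSO, and 152 ± 1.65 CPM in line 1.2 with JQ1 and 331 ± 4.94 CPM with DMSO (SD, n = 2 each). Its averaged change was −1.15 (SE 0.036). Irf2 fell by 1.12 (SE 0.057) and Pax5, the B cell identity factor, by 0.79 (SE 0.046). The 1 that rose was Irf8, by 0.62 (SE 0.039). The untested one was Prdm1, the repressor of Ciita in plasma cells.

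Of 12 endolysosomal genes, 11 were tested, with 2 higher, 7 lower and 2 not passing, beside 30.7% higher and 31.3% lower among all tested genes. Sppl2a, the intramembrane protease that removes the last stump of Cd74, fell by 0.47 (SE 0.049), and the cathepsin inhibitor Cst3 by 0.23 (SE 0.033). Ctsl, the cathepsin that does the work of Ctss in thymic epithelium, had more transcript with JQ1, at low levels. It had 4.16 ± 0.0785 CPM in line 1.1 with JQ1 and 0.848 ± 0.0177 CPM with DMSO. In line 1.2 it had 3.76 ± 0.456 CPM with JQ1 and 0.609 ± 0.159 CPM with DMSO (SD, n = 2 each). Low in DMSO, Ctsl passed the expression filter through its JQ1 libraries. Its fitted change is therefore not given, and its call does not support the count of 2 higher. The other that rose was Ctsb, by 0.26 (SE 0.041). Of the genes of class II turnover at the surface, 2 of 3 were tested: the ubiquitin ligase gene March8 fell by 0.51 (SE 0.077), and March1 rose by 0.73 (SE 0.29), a call lost with DESeq2 and without any 1 of 5 libraries.

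In the class I pathway all 10 listed genes were tested, with 3 higher, 5 lower and 2 not passing, where 30.7% of all tested genes were higher and 31.3% lower, so the share of higher genes was that of all genes. The heavy chain genes H2-K1 and H2-D1 rose by 0.53 (SE 0.036) and 0.40 (SE 0.034). Tap2, a subunit of the peptide transporter, fell by 0.99 (SE 0.064), and the peptide trimming enzyme Erap1 by 0.65 (SE 0.043). The B lineage markers, on which the identity of the cells was checked, moved too: 6 of the 7 tested fell (31.3% of all tested genes), among them Cd22 by 1.59 (SE 0.043), Cd93 by 1.31 (SE 0.068) and Cd79b by 0.85 (SE 0.032). The other, Ighm, rose by 0.19 (SE 0.029), where 30.7% of all tested genes were higher. The part of these markers in the class II changes was not tested.

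**Figure D4:**
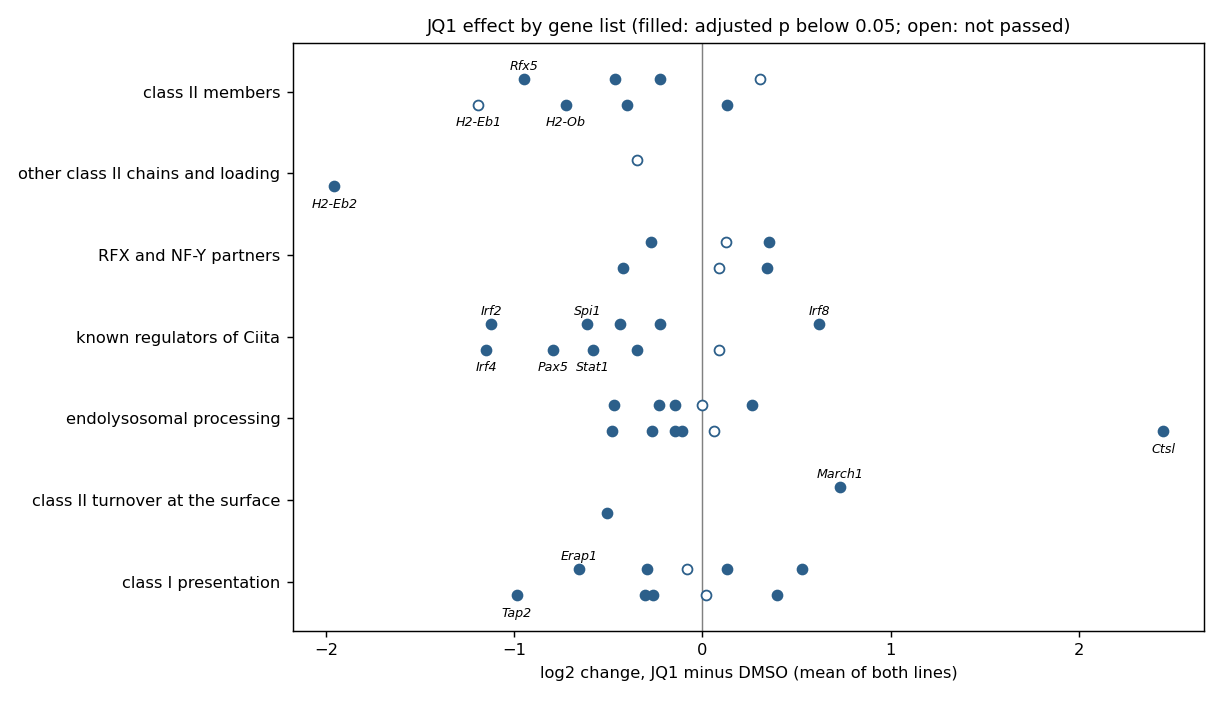
Averaged log2 change, JQ1 minus DMSO, of each tested gene of 7 lists, 1 row a list; filled points passed an adjusted p of 0.05 and genes beyond 0.55 either way are named. Most points of the class II and Ciita regulator rows lie below 0, and the class I row runs from Tap2 at −0.99 to 0.53.

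The second comparison asked how the lines differed before treatment. In DMSO, line 1.2 had more transcript of 5 of the 8 tested genes, where 3.59% of all tested genes were higher, and less of 0, where 3.17% were lower. Cd74 was higher by 0.94 (SE 0.093, adjusted p = 1.40e-07), at 34.9 ± 1.03 CPM in line 1.2 and 18.1 ± 2.58 CPM in line 1.1. H2-Ob was higher by 0.60 (SE 0.090, adjusted p = 7.90e-05), at 33.2 ± 2.13 CPM in line 1.2 and 21.8 ± 2.09 CPM in line 1.1. H2-Ab1 was higher by 0.44 (SE 0.11, adjusted p = 0.0152), at 22.4 ± 2.71 CPM in line 1.2 and 16.6 ± 2.09 CPM in line 1.1 (SD, n = 2 each for all 3 genes). Rfx5 was measured at 0.19 (adjusted p = 0.172), Ctss by 0.15 (adjusted p = 0.136) and Ifi30 by −0.05 (adjusted p = 0.634), and none of these passed.

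The other 2 calls in DMSO were H2-Aa and H2-Eb1, which passed the expression filter through line 1.2, where they are high, so their place among the 5 is no support for it. H2-Aa had 22 reads in line 1.2 and 5 in line 1.1, a ratio of 4.53 per read sequenced (exact 95% interval 1.67 to 15.3). H2-Eb1 had 24 reads in line 1.2 and 6 in line 1.1, a ratio of 4.12 (1.64 to 12.3). Of the untested genes, Ciita had 22 reads in line 1.2 and 14 in line 1.1, a ratio of 1.62 (0.791 to 3.42), and H2-DMa had 4 in line 1.2 and 0 in line 1.1. With a filter of 5 CPM in 2 libraries, which removes both, 3 genes were called. The count of 5 fell to 2 without DMSO replicate 1 of line 1.1 or of line 1.2, and to 3 without JQ1 replicate 2 of line 1.1, either JQ1 replicate of line 1.2 or DMSO replicate 2 of line 1.2. DESeq2 called 2, and H2-Ab1 was lost without DMSO replicate 1 of line 1.1 (0.30) or of line 1.2 (0.31). The calls of H2-Aa and H2-Eb1 were each lost without any 1 of 7 of the 8 libraries.

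Under JQ1, line 1.2 was higher in 4 of the 8, where 3.49% of all tested genes were, and lower in 0, where 2.92% were. As in DMSO, 2 of the 4 are H2-Aa and H2-Eb1, which passed the expression filter through line 1.2 and lend the count no support, and the 5 CPM filter left 2, Cd74 and Rfx5. Cd74 kept its distance at 1.06 (SE 0.100, adjusted p = 5.82e-08), with 31.2 ± 0.591 CPM in line 1.2 and 14.95 CPM in both libraries of line 1.1 (SD, n = 2). Rfx5 was higher by 0.47 (SE 0.10, adjusted p = 0.00580). That call was lost with DESeq2 and with Gm42418 as a covariate (0.39, adjusted p = 0.274). It was also lost without JQ1 replicate 1 of line 1.1 or either JQ1 replicate of line 1.2. H2-Ab1 at 0.16 (adjusted p = 0.497) and H2-Ob at 0.19 (adjusted p = 0.326) did not pass, nor did Ctss at 0.15 (adjusted p = 0.172) and Ifi30 at 0.09 (adjusted p = 0.271). The scarce chains gave 27 reads in line 1.2 and 6 in line 1.1 for H2-Aa, and 22 reads in line 1.2 and 1 in line 1.1 for H2-Eb1, with a ratio of 22.5 and an exact 95% interval of 3.64 to 930. Ciita had 6 reads in line 1.2 and 3 in line 1.1, a ratio of 2.05 (0.438 to 12.7), and H2-DMa 4 in line 1.2 and 2 in line 1.1. The count of 4 was 2 without JQ1 replicate 1 or 2 of line 1.1 or JQ1 replicate 1 of line 1.2, and 1 with DESeq2. Both line differences and both JQ1 effects share libraries, so they are not independent of each other.

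**Figure D5:**
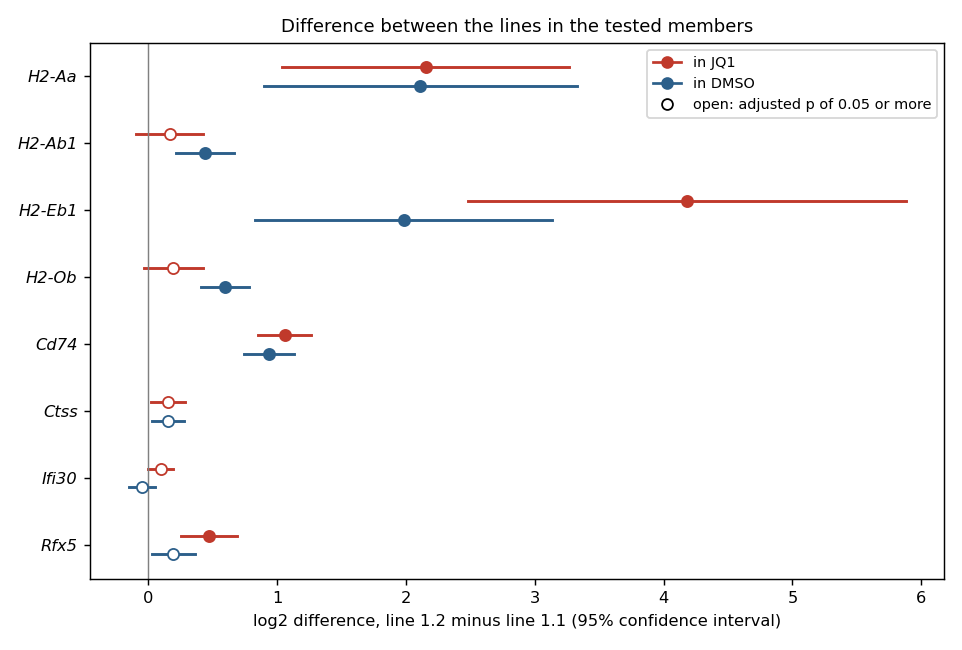
log2 difference, line 1.2 minus line 1.1, of the 8 tested class II genes among JQ1 libraries (red) and among DMSO libraries (blue), with 95% confidence intervals; filled points passed an adjusted p of 0.05. Cd74 is near 1 under both treatments, H2-Ob and H2-Ab1 passed only in DMSO, a contrast that the test of the difference did not call, and H2-Eb1 under JQ1 rests on 1 read in line 1.1.

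Across the 8 libraries, the mean log2 CPM of the 4 chain genes H2-Aa, H2-Ab1, H2-Eb1 and Cd74 was 2.36 to 2.55 in line 1.2 and 0.900 to 1.496 in line 1.1. Among 9376 other genes averaging 5 CPM or more, the most alike by Pearson correlation over the 8 libraries were Igkc at 0.988, Igkv12-46 at 0.987, Otulinl at 0.987, Bcl2 at 0.982 and Igkv3-3 at 0.980. The 8 points fall into 2 clusters, the lines, so these values rank genes by likeness and carry no test. Igkc encodes the kappa constant region and Bcl2 an inhibitor of apoptosis. A gene ranks high here by being higher in line 1.2, and H2-Aa and H2-Eb1, scarce in line 1.1, weigh on the mean.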

How the data were processed

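RNA of 8 libraries was analysed. Per the labels' protocols, libraries were made from total RNA with Illumina's TruSeq kit. The submitters' processing notes name FastQC, cutadapt 1.7, TopHat, Bowtie2, HTSeq and limma, and GRCm38 (mm10). Strand setting, annotation release and further versions: not given in the sources used here. The authors deposited raw counts of reads per Ensembl gene, 43629 genes and 5 summary lines that were left out, with 12.3 to 14.4% of reads assigned to no gene.

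From these counts, edgeR 4.0.16 in R 4.3.3 tested the 12413 genes kept by filterByExpr (minimum count 10, minimum total 15). Libraries were scaled by TMM, 4 group means were fitted to all 8 libraries (4 residual degrees of freedom), and each contrast had a two-sided quasi-likelihood F test. Adjusted p-values are Benjamini-Hochberg values over all tested genes, threshold 0.05. SE derives from the F statistic. Changes are relative to the reads of a library, so a change of total mRNA per cell would not show. Intervals on summed reads are exact (Clopper-Pearson) and, like the floor of 3 reads, cover counting error only. Exon lengths, positions and classes are from GENCODE M21.

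The members and lists were chosen with earlier results of these data known. All 10 genes are named in both comparisons, and from each list up to 4 genes of lowest p that average 1 CPM or more, plus tested genes of the class II region and the 5 genes most like the chains. Rfxap, Rfxank, Prdm1, Dexi, Zbtb46, Ighm, Ms4a1 and Nlrc5 fall outside that rule and were chosen after their values were seen. A gene that the rule names is not reported here. The alternatives were RLE factors, library totals, DESeq2 1.42.0, limma-voom (limma 3.58.1), no filter, a 5 CPM filter, a replicate block, a null of 1.5-fold, a threshold of 0.01, Gm42418 as a covariate and each library left out. The edgeR steps were tested on simulated data.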

Additional observations from a re-analysis of the deposited data

How the results depend on the processing

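The counts of class II genes called moved as follows. Against a null of 1.5-fold, the averaged JQ1 effect gave 1 lower and 0 higher, line 1.1 gave 1 lower, line 1.2 gave 2 lower and 0 higher, and line 1.2 minus line 1.1 gave 1 higher in DMSO and 2 in JQ1. DESeq2 gave 3 lower in line 1.1 and, for the lines, 2 higher in DMSO and 1 in JQ1. A threshold of 0.01 gave 3 lower in line 1.1 and 2 higher between the lines in DMSO. The 5 CPM filter, which removes H2-Aa and H2-Eb1, gave 3 higher in DMSO and 2 in JQ1. With the Gm42418 covariate, 0 were higher for the averaged JQ1 effect and in line 1.2, and 1 was higher between the lines in JQ1. Leaving out 1 library at a time gave 5 to 6 lower for the averaged effect, 3 to 6 lower in line 1.1, 4 to 5 lower in line 1.2, and 2 to 4 higher between the lines in DMSO and 2 to 4 in JQ1. The causes were not tested. Which genes lost a call varied with the library left out, but the lost calls stayed within few genes. They were Cd74 for the averaged effect, and H2-Ab1 and Cd74 in line 1.1. Between the lines they were H2-Aa, H2-Eb1 and H2-Ab1 in DMSO, and H2-Aa, H2-Eb1 and Rfx5 in JQ1. H2-Ob and Ctss lost no call in this way. None of the 8 genes tested in the full fit gained a call without a library. Counts above the full fit therefore include H2-DMa or Ciita, which the expression filter had left out of it. Nor does 5 to 6 mean that all 5 averaged calls held: Cd74 was lost without DMSO replicate 1 of line 1.1 (−0.14).

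Without single libraries, H2-Aa in line 1.1 was −0.20 to 0.73, H2-Eb1 in line 1.2 was −0.39 to 0.15, and the JQ1 effect difference between lines was −0.41 to 0.53 for H2-Aa, −0.037 to 0.25 for Cd74 and −0.066 to 0.066 for Ctss. The last was 0.00039 with RLE factors, 0.0021 with limma-voom and 0.013 with no filter. With the Gm42418 covariate, the JQ1 effect on Cd74 in line 1.2 was 0.13, and H2-Ab1 between the lines in JQ1 was −0.15. That covariate also moved the JQ1 effect on H2-Ab1 in line 1.2 to −0.98, with no change of sign.

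With the replicate number as a replicate block, the averaged JQ1 effect again gave 5 lower and 1 higher class II genes, line 1.1 gave 5 lower, line 1.2 gave 4 lower and 1 higher, and the interaction 0. No call of these genes changed. Over all tested genes, the difference of replicate 1 minus replicate 2 was nearly uncorrelated between groups (correlations of −0.03 to 0.08). Such correlations cannot show whether replicates of the same number were prepared together, and the labels do not say. Over all tested genes, the interaction called 14 genes, 26 with the block, 80 with no filter and 459 without DMSO replicate 1 of line 1.1. Depth limits what can be said of H2-Aa, H2-Eb1, H2-DMa and Ciita, each with at most 16 reads in a library.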

Other observations

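Zbtb46, a transcription factor that marks classical dendritic cells, had more reads with JQ1, in libraries where several other dendritic markers were at 0. It had 17 and 16 reads in line 1.1 with JQ1, against 2 in each DMSO library, and 10 and 9 reads in line 1.2 with JQ1, against 1 and 0 with DMSO. All JQ1 libraries exceeded all DMSO libraries. Each DMSO library lay under the floor of 3 reads, and the gene passed the expression filter through its JQ1 libraries, so the fitted change is not given. Summed over the lines, 52 reads with JQ1 stood against 5 with DMSO, a ratio of 10.3 per read sequenced (exact 95% interval 4.15 to 33.1, counting error only). Mrc1, the macrophage mannose receptor, fell by 1.81 (SE 0.23) with JQ1. The summed dendritic and myeloid level was lower with JQ1 in both lines, but much of that sum with DMSO was Mrc1. In line 1.1 Mrc1 averaged 1.13 CPM with JQ1 and 4.09 CPM with DMSO. In line 1.2 it averaged 0.795 CPM with JQ1 and 2.77 CPM with DMSO. The lower sum is therefore no result about the markers as a set, and Zbtb46 went the other way.

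The class I genes shared the direction of the line difference. In DMSO, line 1.2 was higher than line 1.1 for 7 of 10 class I genes (3.59% of all tested genes were higher and 3.17% lower), among them Nlrc5, the class I transactivator and a relative of Ciita, by 0.82 (SE 0.11, adjusted p = 2.23e-05), Tap1 by 0.57 (SE 0.090) and H2-K1 by 0.33 (SE 0.052). The B cell surface gene Ms4a1 was higher by 2.50 (SE 0.25), at 7.49 CPM in line 1.2 and 1.31 CPM in line 1.1. No class I gene on the list was lower in line 1.2 in DMSO.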
